A study of Mus musculus with 8 samples.

Results

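The RNA described here comes from 9 genes, followed through acute degradation of METTL3: the genes that supply S-adenosylmethionine (SAM), the methyl donor of RNA methylation, and the enzymes that methylate adenosine without METTL3. They are Mat2a, Mat2b, Ahcy, Mettl16, Mettl4, Pcif1, Mettl5, Trmt112 and Zcchc4. Their rows were taken by exact gene name from the deposited gene tables, with no cut on a measured value. The 9 genes, and the lists of other genes used further below, were chosen with earlier results of these data known. All 9 were found as loci of their own among the 35541 loci of the 8 h and 24 h tables. In the 1 h table, of 35494 loci, 8 were found, because Mettl16 shares 1 locus there with its neighbour Mnt.

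The samples were mouse retinal organoids at day 6 of differentiation, grown from a reporter line that expresses GFP from Rx (Rax, an eye field transcription factor). Every group, untreated controls included, carried the same knock-in, an FKBP12F36V-HA tag at the C-terminus of both endogenous Mettl3 alleles, so no untagged control was compared. The tag lets the small molecule dTAG-13 direct METTL3 protein to degradation. The 4 groups of 2 samples had 0, 1, 8 or 24 h of dTAG-13 at 125 nM, in medium with 5% KSR and 0.1 µM AGN, and were collected together. The labels describe 1 knock-in line, do not say whether it is 1 clone, and do not say whether the 0 h organoids received solvent.

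METTL3 writes most N6-methyladenosine (m6A) on mRNA, but several other enzymes methylate adenosine elsewhere. METTL16 methylates U6 spliceosomal RNA and hairpins in the Mat2a mRNA, METTL4 acts on a spliceosomal RNA, and PCIF1 on the adenosine next to the mRNA cap. METTL5, stabilised by TRMT112, methylates small-subunit ribosomal RNA, and ZCCHC4 methylates large-subunit ribosomal RNA. All of them use SAM, which MAT2A makes from methionine and ATP with MAT2B as its regulatory subunit. The reaction leaves S-adenosylhomocysteine, an inhibitor of methyltransferases, which AHCY removes. METTL16 is also known to tie SAM to Mat2a RNA: when SAM is scarce it stays on the hairpins and favours splicing of a retained intron and a stable mRNA.

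Each deposited column combines both samples of a condition, so the spread between replicates is not visible, no test across replicates was possible, and the error given is the interval deposited with each value. Levels are in FPKM (fragments per kilobase of transcript, scaled to library size), which compares genes per length. The estimated counts of a condition summed to between 31361500 and 32562100 and are scaled values, not library sizes. To be called, a gene needed a 1.5-fold or larger ratio of FPKM (after adding 0.1 to each) and deposited intervals without overlap. Log2 ratios carry a standard error (SE) or a 95% interval propagated from the deposited variances of the estimated counts. In bulk RNA, less RNA per cell and fewer cells of a type cannot be told apart. As a check of the tissue, the retinal progenitor genes Rax, Six3, Six6, Lhx2, Pax6 and Sox2 lay between 49.5 (Six3) and 142 FPKM (Lhx2) at 0 h. The pluripotency genes Pou5f1, Nanog, Zfp42, Esrrb and Dppa5a lay between 9.25 (Esrrb) and 200 FPKM (Dppa5a), so pluripotency RNA was present too. Their part in the results was not tested. Mettl3 mRNA itself was not called at any time, and its log2 ratios of FPKM were -0.01, 0.00 and -0.19 at 1, 8 and 24 h. METTL3 protein, on which the degron works, was not measured.

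None of the genes passed the rule at any time: 0 of 8 at 1 h, where 0.402% of all tested loci were called, 0 of 9 at 8 h, where 4.43% were, and 0 of 9 at 24 h, where 5.48% were. Mettl5 could not have been called lower, because its 0 h interval began at 0 in every pair. Over the genes the log2 ratio of FPKM had a median of 0.08 after 1 h and of -0.04 after 8 h and after 24 h. Over all tested loci it was 0.01, 0.01 and 0.02. At 24 h the ratios of the 9 genes ran from -0.26 (Mat2a) to 0.64 (Mettl16). At these backgrounds under 1 of 9 loci is called, so a count of 0 does not set the genes apart. At 24 h other rules were also applied. A 1.5-fold ratio without regard to the intervals called 2 of 9, Mettl16 and Pcif1, and 17% of all tested loci. The same fold with a 95% interval from the count variances called the same 2 and 10.3% of all, while the 95% interval from the FPKM half-widths (9.33% of all) and the estimated counts in place of FPKM (7.87%) called 0 of 9.

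**Figure D1:**
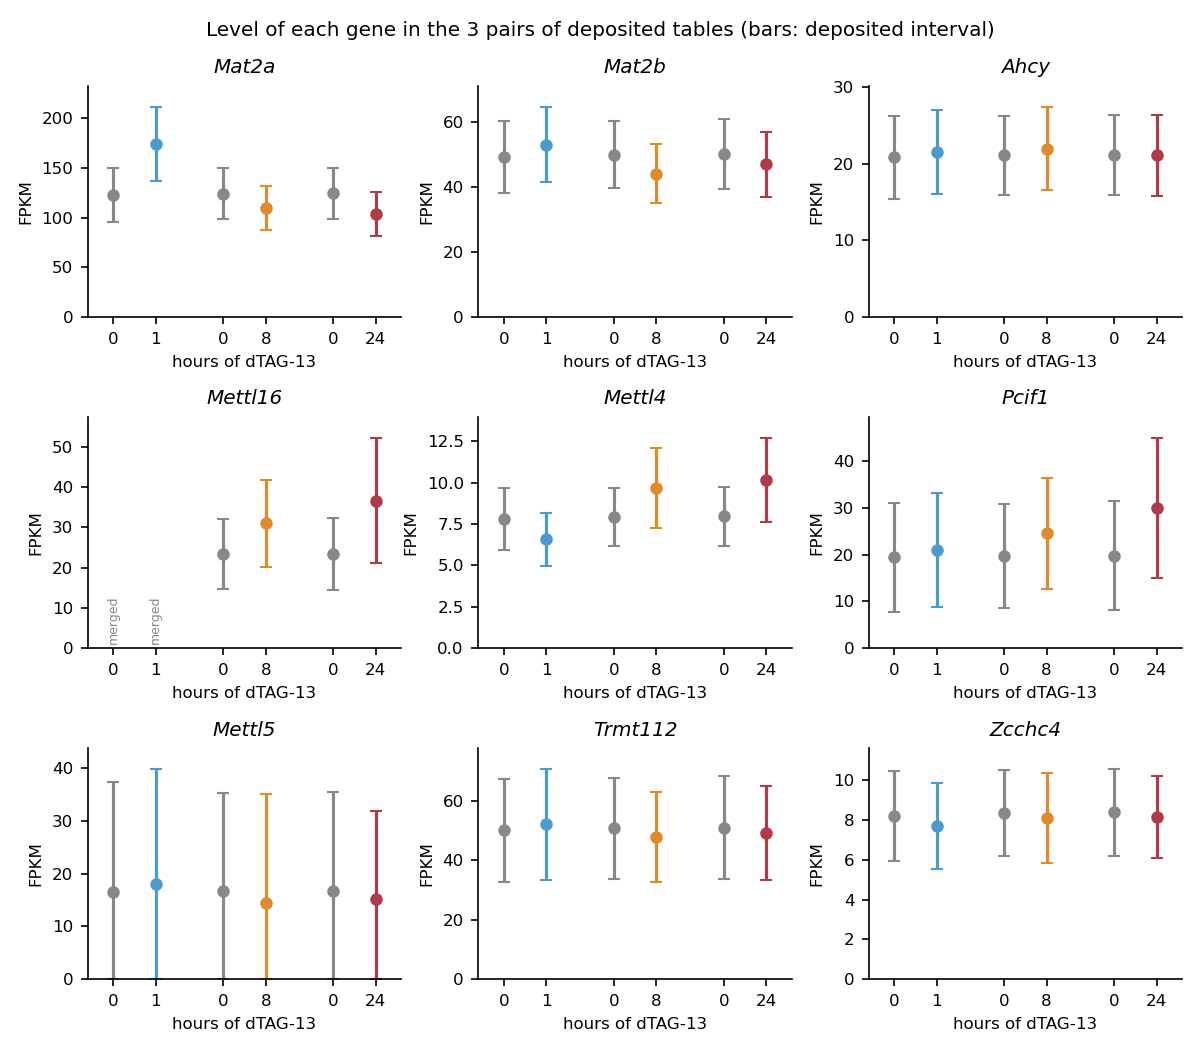
Level of each gene in FPKM (y axis, from 0) at 0 h and at each time of dTAG-13 in the 3 pairs of deposited tables (x axis, hours), with points for the value combined over 2 samples and bars for the deposited interval. Within every pair the bars overlap, Mat2a is the gene with the highest level, and the bars of Mettl5 reach 0.

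Before treatment Mat2a had the highest level of the 9, at 122.7 to 124.6 FPKM in the 3 tables. Trmt112 (49.98 to 50.8 FPKM) and Mat2b (49.3 to 50.1) followed, and their intervals overlapped each other but not that of Mat2a. Mettl16 (23.3 to 23.4), Ahcy (20.8 to 21.2), Pcif1 (19.4 to 19.8) and Mettl5 (16.4 to 16.7) came next, with neighbours that were not resolved. Zcchc4 (8.23 to 8.39) and Mettl4 (7.81 to 7.95) were lowest and overlapped each other. The intervals of Mettl5 and Pcif1 are wide and overlapped those of Zcchc4 and Mettl4, and that of Mettl5 also overlapped Trmt112. Thus both subunits of SAM synthesis had higher levels per length than each of the adenosine methyltransferases measured here, with no overlap of intervals.

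Mat2a encodes the catalytic subunit of SAM synthetase outside the liver. It maps to chromosome 6, 72432799 to 72439558, minus strand (GRCm38). Untreated organoids had 122.7 FPKM (deposited interval 95.5 to 149.8) and organoids after 1 h had 174.3 (137.1 to 211.4), a 1.42-fold difference. For the 8 h pair the values were 124.2 (98.6 to 149.8) untreated and 110.0 (87.7 to 132.3) treated. For the 24 h pair they were 124.6 (99.0 to 150.3) untreated and 103.9 (81.4 to 126.4) treated. The value was thus high at 1 h and under the 0 h value at 8 and 24 h, and the intervals of each pair overlapped.

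The log2 ratio of Mat2a at 1 h was 0.51 (SE 0.21, 95% interval 0.10 to 0.91), below the 1.5-fold threshold. The estimated counts, 10694 at 0 h and 15142 at 1 h, gave 0.50 (0.10 to 0.90). These 95% intervals of the ratio leave out 0 although the deposited intervals of the levels overlap. Absence of overlap is the stricter criterion. The ratio interval from the deposited FPKM half-widths (0.11 to 0.91) also leaves out 0. Those half-widths were scaled by their median over loci in count standard deviations, and Mat2a lay near that median (2.18 and 2.13 at 0 and 1 h). The interval of the count ratio uses the same SE as that of the FPKM ratio. For Mat2a these intervals are thus not separate estimates of error. Of the tested loci, 3.43% had a higher ratio at 1 h, and of the 2124 loci with at least 50 FPKM at 0 h, 1.65% did. At 8 h the log2 ratio was -0.18 (-0.55 to 0.20) and at 24 h -0.26 (-0.64 to 0.12), and both intervals hold 0. The 3 ratios use the same 0 h samples, and no test compared 1 h with 8 or 24 h. Mat2a overlaps the opposite-strand gene Particl, for which no locus was found in the tables, and strand use in counting is not stated.

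The known METTL16 sites of Mat2a are shown because they are the link between the 2 genes. The RNA motif, written in DNA letters as TACAGAGAA or TACAGAAAA, was searched on the transcribed strand of 1 representative transcript per gene (GENCODE M21). Mat2a held 6 matches, all in the last exon, exon 9, within the 3' UTR. The sites lie on the minus strand and are printed 5′ to 3′ with 10 flanking bases to each side and the motif in capitals.
Mat2a site 1, chr6:72434235-72434263: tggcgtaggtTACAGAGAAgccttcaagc
Mat2a site 2, chr6:72433451-72433479: ccttgtgataTACAGAGAAgtcacagggc
Mat2a site 3, chr6:72433272-72433300: ctggtgtagcTACAGAGAAaccagcttcc
Mat2a site 4, chr6:72433157-72433185: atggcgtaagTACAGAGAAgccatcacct
Mat2a site 5, chr6:72433046-72433074: caaggtgtccTACAGAAAAaccttgggtt
Mat2a site 6, chr6:72432938-72432966: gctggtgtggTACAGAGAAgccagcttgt

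Of the 6 sites, 5 held the form with G and 1, site 5, the form with A. The first began 40 bases after the stop codon and the others 824 to 1337 bases after it. In a predicted fold of each 29-base stretch, 5 to 9 base pairs formed, and the A that METTL16 methylates, the first A after the C, was unpaired in 6 of 6. Among 21875 protein-coding genes, 7.13% held at least 1 match in their representative transcript, 115 held at least 2, and Mat2a was the 1 gene with 6. Among 2557 transcripts within 10% of the length of Mat2a, 7.31% held at least 1. Of the other 8 genes, 7 held none, and Mettl5 held 1. A match is a description and does not show binding or methylation in these organoids. The deposited gene values combine all transcripts of a locus, so retention of the last Mat2a intron was not analysed here.

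**Figure D2:**
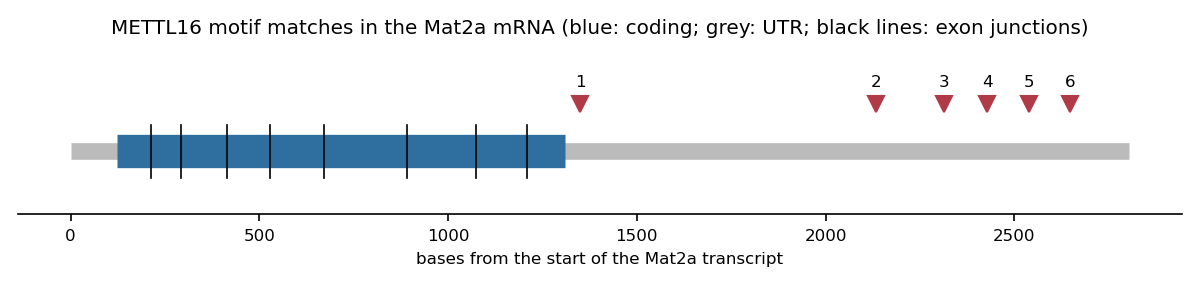
Position of the 6 METTL16 motif matches (red triangles, numbered) along the representative Mat2a transcript of 2804 bases (x axis, bases from its start), with coding sequence in blue, UTR in grey and exon junctions as black lines. All 6 matches lie after the coding sequence, and 5 of them lie in its last part, from base 2134 on.

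Mat2b and Ahcy, the other genes of SAM supply, showed small differences. Mat2b (chromosome 11, 40679314 to 40695203, minus strand) had untreated levels of 49.3, 49.9 and 50.1 FPKM in the 3 pairs, beside 52.9 after 1 h, 44.1 after 8 h and 46.9 after 24 h. Its log2 ratios were 0.10, -0.18 and -0.09, each with an SE of 0.20 to 0.21. Ahcy (chromosome 2, 155059310 to 155074497, minus strand) had untreated levels of 20.8, 21.1 and 21.2 FPKM, beside 21.5 after 1 h, 21.99 after 8 h and 21.1 after 24 h. Its log2 ratio at 24 h was -0.00, with a 95% interval from -0.41 to 0.40, so changes of either sign within that range remain possible. Mat2b had values on the same side of 0 h as Mat2a at each time, while Ahcy stayed within 0.06 of 0 on the log2 scale by FPKM. No difference between the genes was tested.

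Mettl16, the U6 and Mat2a methyltransferase, maps to chromosome 11, 74770830 to 74828525, plus strand. For the 8 h pair it had 23.3 FPKM (14.6 to 32.0) untreated and 31.0 (20.2 to 41.9) treated. For the 24 h pair it had 23.4 (14.6 to 32.3) untreated and 36.6 (21.1 to 52.2) treated. Both treated values lay above the 0 h value, and the intervals of each pair overlapped.

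The log2 ratio of Mettl16 was 0.41 at 8 h and 0.64 at 24 h by FPKM, and 0.46 and 0.45 by estimated counts. The counts were 2933 at 0 h and 4020 at 8 h, and 2903 and 3964 in the 24 h pair. The 95% interval of the count ratio was 0.07 to 0.84 at 8 h and 0.06 to 0.84 at 24 h. The deposited FPKM intervals of Mettl16 are wider than its count variance gives, 3.88 standard deviations to each side at 0 h in the 8 h table. With a standard error taken from those widths, the 95% interval of the FPKM ratio was -0.25 to 1.08 at 8 h and -0.10 to 1.39 at 24 h. At 24 h, 8.73% of tested loci had a higher FPKM ratio. The annotated protein-coding transcripts of Mettl16 run from 450 to 12584 bases, and an FPKM divides by the lengths of those the authors' program assigned reads to.

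Mettl4 and Pcif1 also had higher values at the later times without passing the rule. Mettl4 (chromosome 17, 94722590 to 94750019, minus strand) had untreated levels of 7.81, 7.92 and 7.95 FPKM, beside 6.58 after 1 h, 9.67 after 8 h and 10.1 after 24 h. Its log2 ratios were -0.24 (SE 0.22), 0.28 (0.20) and 0.35 (0.21), and by estimated counts -0.25, 0.18 and 0.18. Its value lay below 0 h at 1 h and above it at both later times, and each 95% interval holds 0.

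Pcif1 (chromosome 2, 164879304 to 164894454, plus strand) had 19.4 FPKM (7.73 to 31.1) untreated and 20.99 (8.81 to 33.2) treated in the 1 h pair. It had 19.7 (8.55 to 30.8) and 24.6 (12.7 to 36.5) in the 8 h pair, and 19.8 (8.08 to 31.4) and 29.999 (14.96 to 45.04) in the 24 h pair. The log2 ratio of FPKM at 24 h was 0.60, past 1.5-fold, but that of the estimated counts, 1690 and 1920, was 0.18 (-0.29 to 0.66). The estimated count per unit of FPKM went from 85.5 at 0 h to 64.0 at 24 h. So the FPKM difference of Pcif1 was for the most part not present in its counts. Pcif1 overlaps Zfp335 on the opposite strand, which had 4.39 FPKM at 0 h. The locus deposited for Pcif1 runs past the annotated gene, to 164919953, and that span also holds Zfp335os on the same strand, listed as a locus of its own with 1.86 FPKM at 0 h. The deposited loci of Ahcy (155059310 to 155100081), Mettl5 (69861562 to 69885615) and Trmt112 (6906697 to 6921813) also run past the annotated genes. That of Ahcy holds 2310005A03Rik on the same strand, with 0 FPKM at 0 h.

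**Figure D3:**
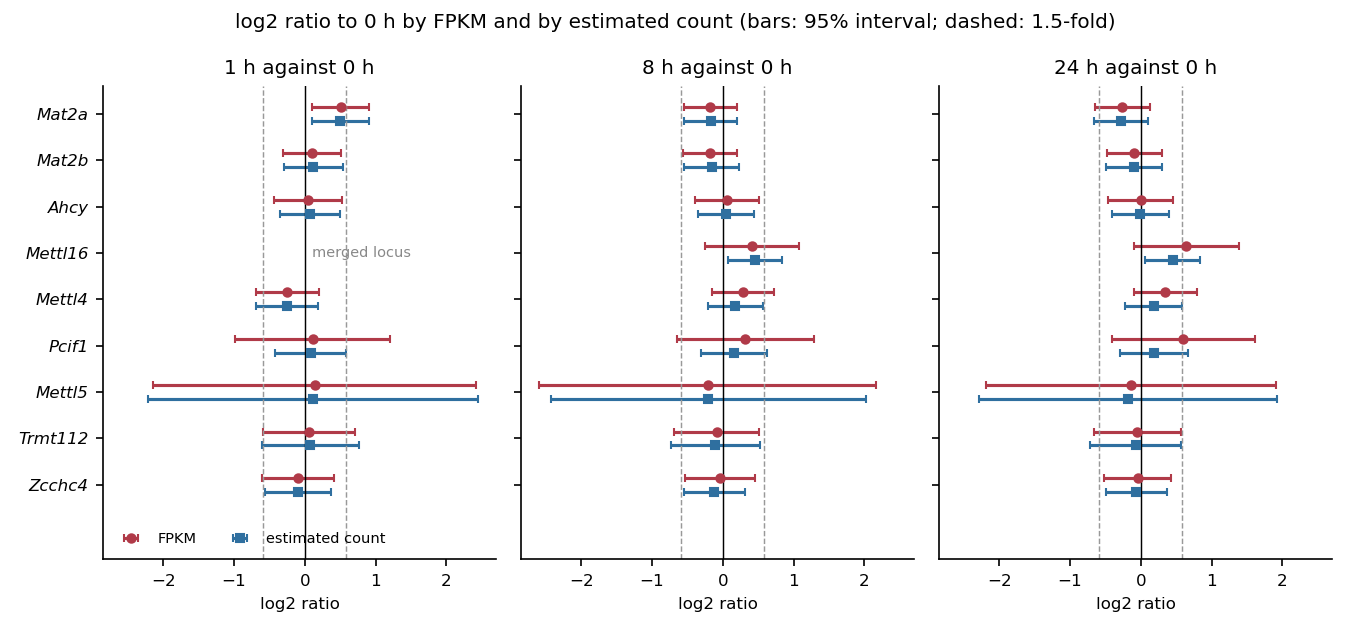
Log2 ratio of each gene to 0 h (x axis) at 1, 8 and 24 h by FPKM (red circles) and by estimated count (blue squares), where bars are 95% intervals from the deposited FPKM intervals and count variances and dashed lines mark 1.5-fold. Mat2a at 1 h has both intervals above 0, Mettl16 at 8 and 24 h has the count interval above 0, and Pcif1 at 24 h has 0.60 by FPKM but 0.18 by count.

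Of the ribosomal RNA methyltransferases and their partner, Zcchc4 and Trmt112 had values close to 0 h, while Mettl5 was too uncertain to tell. Mettl5 (chromosome 2, 69871198 to 69885615, minus strand) had untreated levels of 16.4, 16.6 and 16.7 FPKM, beside 18.1 after 1 h, 14.3 after 8 h and 15.2 after 24 h. Every deposited interval of Mettl5 began at 0, and its log2 ratios of 0.14, -0.21 and -0.13 had SEs of 1.08 to 1.19. The coefficient of variation of its estimated count at 0 h was 53.0% to 59.6%, against 9.40% to 16.99% for the other genes. At 24 h the 95% interval of its log2 ratio ran from -2.24 to 1.97, so large changes of either sign remain possible. Mettl5 overlaps Ssb, on the opposite strand at 273 FPKM.

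Trmt112 (chromosome 19, 6909698 to 6911049, plus strand) had untreated levels of 49.98, 50.6 and 50.8 FPKM, beside 51.96 after 1 h, 47.7 after 8 h and 49.1 after 24 h. Its log2 ratios were 0.06, -0.09 and -0.05 with SEs of 0.32 to 0.35. It overlaps Prdx5 and Esrra on the opposite strand, at 43.4 and 7.37 FPKM. Zcchc4 (chromosome 5, 52775409 to 52824665, plus strand) had untreated levels of 8.23, 8.36 and 8.39 FPKM, beside 7.70 after 1 h, 8.12 after 8 h and 8.15 after 24 h. Its log2 ratios were -0.09, -0.04 and -0.04 with SEs of 0.22 to 0.24. Neither gene had an FPKM ratio past 0.1 on the log2 scale at any time. By estimated counts Trmt112 had -0.11 and Zcchc4 -0.12 at 8 h.

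Exon structure is described because m6A is known to be kept away from exon junctions and to lie in long exons. Earlier results of these data, in which ratios differed with exon density, were known when it was chosen. The median over 11185 tested genes was 6.15 junctions per kilobase of coding sequence. Mettl16 (4.82) and Mettl4 (4.95) had the lowest densities of the 9, with 33.7% and 35.1% of tested genes below them. Mat2b had 5.99, Pcif1 6.61, Mat2a 6.75, Ahcy 6.94 and Zcchc4 7.16. Trmt112 (8.00) and Mettl5 (9.57) had the highest. Mettl16, Mettl4 and Pcif1 were the 3 with log2 ratios of FPKM above 0.1 at 24 h, and Pcif1 lies near the middle of this order. The longest internal exon had 801 bases in Mettl4, 200 in Mettl16 and 185 in Pcif1. It had 276 in Zcchc4, 219 in Mat2a, 208 in Ahcy, 195 in Mat2b, 182 in Mettl5 and 102 in Trmt112. The median over tested genes with an internal exon was 216. First and last exons are left out of this measure, so a long last exon does not show in it. The last exon of Mat2a runs from base 1208 to base 2804 of its transcript. The Mettl16 transcript has 12584 bases, of which 1659 are coding. A link of exon structure with the ratios was not tested.

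Other genes of the same pathways were counted in 7 lists. Of all tested loci, 0.402% were called at 1 h, 4.43% at 8 h and 5.48% at 24 h. A count of 0 or 1 in a list is therefore not read as a trait of that list. Of 25 genes of the methionine cycle and SAM use, 20 were tested and 0 were called at each time. The list had a median log2 ratio of 0.01 after 1 h, -0.21 after 8 h and -0.29 after 24 h, against 0.01, 0.01 and 0.02 over all tested loci, and 12 and 14 of 20 were below 0 at 8 and 24 h. The pair furthest below 0 at 24 h, named after their values were seen, were Mthfd1 and Cth. Mthfd1, a folate enzyme that feeds one-carbon units toward methionine, had 46.6 (36.0 to 57.3) and 30.0 FPKM (23.3 to 36.7), a log2 ratio of -0.63 (SE 0.20). Cth, which turns cystathionine into cysteine, had 11.6 (8.95 to 14.3) and 7.47 FPKM (5.71 to 9.24), a log2 ratio of -0.63 (SE 0.23). The intervals of both overlapped.

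Of the 7 partners of TRMT112, 7 were tested and 0 were called at each time, with medians of 0.06, 0.01 and 0.26. Of 9 cap and small nuclear RNA methyltransferases, 7 were tested, and Cmtr2 was called higher at 8 and 24 h. At those times 4.43% and 5.48% of all tested loci were called. Cmtr2 methylates the ribose of the second nucleotide of mRNA. It had 5.14 (4.01 to 6.27) and 11.4 FPKM (9.12 to 13.7) at 0 and 8 h, and 5.16 (4.01 to 6.31) and 10.7 FPKM (8.54 to 12.9) at 0 and 24 h. It rose by 1.13 (SE 0.21) and 1.04 (SE 0.22) on the log2 scale. Its coding sequence lies in 1 exon. The median of the list was 0.17, 0.23 and 0.12.

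Of 26 genes listed as tRNA methyltransferases, 26 were tested, and only Trmt12 was called, higher at 8 and 24 h. The shares of all tested loci called were 4.43% and 5.48%. Trmt12 is named as a methyltransferase, but its product acts in wybutosine synthesis and moves a group of SAM other than the methyl group. It had 2.42 (1.85 to 2.997) and 5.63 FPKM (4.45 to 6.81) at 0 and 8 h and 2.43 (1.85 to 3.01) and 4.14 FPKM (3.20 to 5.08) at 0 and 24 h. The log2 ratios were 1.18 (SE 0.22) and 0.74 (SE 0.23), and its coding sequence lies in 1 exon. The median of the list was 0.03, -0.10 and -0.16 at 1, 8 and 24 h. Of 15 rRNA methyltransferases, 14 were tested, and Nop2, a cytosine methyltransferase of the nucleolus, was called higher at 8 and 24 h. It had 43.4 (34.7 to 52.1) and 72.8 FPKM (58.6 to 87.0) at 0 and 8 h, a log2 ratio of 0.75 (SE 0.19). At 24 h the log2 ratio was 0.61 (SE 0.20). Nop2 has 15 coding exons. In the lists, exon counts were looked up only for the called genes Cmtr2, Trmt12 and Nop2. Uncalled genes of the lists are not set beside them, and a link of exon count with the ratios was not tested.

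Of the genes known to act on Mat2a RNA, 5 were tested and 0 were called at each time. The 5 were Nudt21, Cpsf6, Cpsf7, Clk1 and Clk4, with medians of -0.05, -0.12 and -0.20. The m6A reader Ythdc1, which is known to take part in Mat2a splicing, shares 1 locus with Gm16579 and Gm43055. That locus had 53.0 (40.6 to 65.4) and 73.0 FPKM (56.7 to 89.2) at 0 and 1 h, and 53.9 (42.1 to 65.8) and 100.4 FPKM (80.3 to 120.5) at 0 and 8 h. It passed the rule at 8 h, with a log2 ratio of 0.89 (SE 0.19), and at 24 h, with 0.87 (SE 0.20), but not at 1 h, with 0.46 (SE 0.21). The values belong to the merged locus, and how much of them is Ythdc1 was not tested. Of 8 genes of the METTL3 complex, 5 were tested at 8 and 24 h, because 3 lay in merged loci. Wtap and Cbll1 were called higher at both times, with log2 ratios of 1.07 and 0.75 at 8 h. Of all tested loci, 4.43% were called at 8 h and 5.48% at 24 h. Mettl14 had a log2 ratio of -0.05 and Mettl3 of 0.00 at 8 h.

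**Figure D4:**
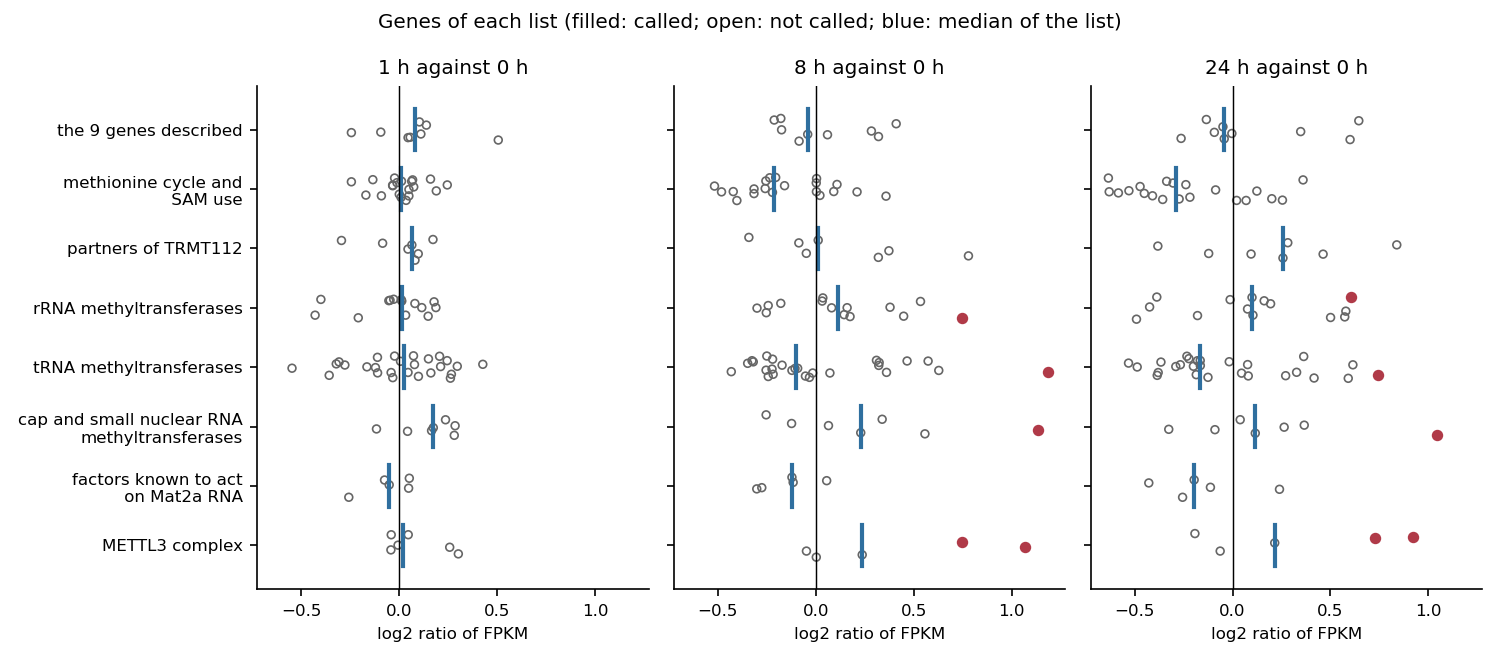
Log2 ratio of FPKM to 0 h (x axis) of each tested gene in the 9 described and in the 7 lists (rows) at 1, 8 and 24 h, where filled points are called, open points are not, and blue lines are medians of the list. No point is filled at 1 h, none of the 9 genes is filled, and the median of the methionine cycle list lies at -0.21 at 8 h and -0.29 at 24 h.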

How the data were processed

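Polyadenylated RNA of 8 organoid samples was sequenced, and samples were grouped by title. Cufflinks 2.2.1 and Cuffdiff were run on mm10, per the submitters' processing notes, and strand use is not given in the sources used here. The authors deposited 3 pairs of tables (1, 8 and 24 h, each with 0 h), one of FPKM with interval bounds of unstated level and one of estimated counts with variances. Each FPKM or estimated count was made by the authors from both replicates together, which were library-prepared in separate rounds, per the labels. Normalization differed by table, so each ratio stays within 1 table.

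A locus was tested at 1 FPKM or more in 1 condition with status OK (13690, 13825 and 13910 loci), and called as stated in the report. No edgeR or DESeq2 fit was made, since replicates are pooled, and at most 3 counts was a floor that no gene described here reached. Unnamed loci held 1.03% to 1.04% of 0 h counts and stayed in the totals. Standard errors were the square root of the summed squared coefficients of variation of both counts, divided by ln 2. For those from FPKM half-widths, each relative half-width was first divided by the median over loci of its size in count standard deviations. Genes named are the 9, called genes of the 7 lists, and exceptions stated as such. Genes of like pattern were to be named only for a called gene. Protein motifs were not searched, and 1 marker gene of the tissue check is not reported here. The 9 genes and the lists were chosen with earlier results of these data known. Coordinates and transcripts are GENCODE M21 (GRCm38), taken as mm10, and folds are from RNAfold 2.7.2. Python 3.11.15 and pandas 2.3.3 were used, and the rule was tested on simulated data. Alternatives are given in the closing section.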

Additional observations from a re-analysis of the deposited data

How the results depend on the processing

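Each count was recomputed under 11 alternatives, 1 of them (95% intervals from FPKM half-widths) chosen after seeing the data. No log2 ratio of the 9 genes changed sign. The number of the 9 called stayed at 0 at 1 and 8 h, and at 24 h it was 2 (Mettl16 and Pcif1, 0.64 and 0.60) by 1.5-fold without intervals, which called 17% of all loci, and 2 by the 95% interval from count variances, which called 10.3%. It was 0 by FPKM half-widths and by estimated counts. In the lists at 8 h, a 2-fold threshold left 0 rRNA enzymes and 1 gene of the METTL3 complex. The fold alone, the 95% intervals from count variances and from FPKM half-widths, and estimated counts called 13.7%, 8.54%, 7.59% and 6.22% of all loci at 8 h. Each gave 1 partner of TRMT112 (6430573F11Rik) and 2 of 26 tRNA enzymes (Trmt12 and Trmt5), and counts gave 2 cap enzymes (Cmtr2 and Mepce). At 24 h, 0 tRNA enzymes were called with a pseudocount of 1, with at least 5 FPKM or with 2-fold, and 2-fold left 0 rRNA enzymes and 0 genes of the METTL3 complex. The fold alone, both 95% intervals and counts each gave 2 methionine cycle genes (Mthfd1 with Cth, but by counts Mthfd1 with Shmt2) and 1 partner of TRMT112, with 3 tRNA enzymes by the fold alone and by count variances and 2 by the other rules. The shares of all loci called with 2-fold, a pseudocount of 1 or at least 5 FPKM are not given here, so the lost calls are not set against them. The cause of these shifts was not tested. No paired analysis was possible because the columns combine the replicates, and leaving out each replicate was not run for the same reason. The spread of its estimated count limits Mettl5 most among the 9, and the part of depth in it was not tested.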

Other observations

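In the 1 h table the locus that joins Mettl16 with Mnt had 29.5 FPKM (19.3 to 39.7) at 0 h and 31.0 (19.97 to 42.0) at 1 h, a log2 ratio of 0.07 (SE 0.21). The value of Mettl16 alone at 1 h is not given by it. The 1 match of the METTL16 motif in Mettl5 lies in exon 1 within the 5' UTR, and its 29-base stretch formed 0 base pairs in the predicted fold, against 5 to 9 at the Mat2a sites.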
